A study of Mus musculus with 121 samples.

Results

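The mouse mammary carcinomas mmca and mca4 were compared before any irradiation. The comparison used 8 arrays of a series of 81 gamma and 40 carbon arrays, 2 unirradiated arrays of each tumour from the gamma ray experiment and 2 of each from the carbon ion experiment. The arrays were chosen by their labels alone, and the tumour difference was taken within each experiment. A gene was then kept where both experiments called it in 1 direction. Among 12900 genes tested in both experiments, 117 were kept, 73 of them higher in mmca and 44 lower.

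Both tumours carry the same label, a carcinoma of the mammary gland that arose spontaneously in the C3H/He strain, and both were transplanted into the hind legs of male C3H/HeMs mice. The gamma groups were mmca and mca4 at 0 Gy and day 1. The carbon groups were mmca and mca4 at hour 0, whose titles carry the dose 30 of the carbon experiment while their descriptions state that they were not irradiated. No group was described as carrying a genetic change or a drug, and ages and passage numbers were not given in the sources used here. Total RNA was hybridised to 1-colour CodeLink arrays, on which 1 probe reports 1 transcript as a spot brightness. No label states that replicate arrays stem from different animals. The p-values therefore rest on array-to-array spread alone, which may be technical.

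The mammary epithelium has a luminal layer, which makes milk under the control of hormones and is held together by simple keratins, cadherins and tight junctions, and a basal layer of contractile myoepithelial cells with other keratins. Spontaneous mammary tumours of C3H mice are a classical model in which mouse mammary tumour virus activates nearby growth factor genes, among them members of the Wnt and fibroblast growth factor families. A tumour transplanted into a leg also holds host tissue: fibroblasts, vessels, immune cells and the skeletal muscle it grows into. RNA of a whole tumour sums over all of these. In such bulk RNA, fewer cells of a type and less RNA per cell cannot be told apart.

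Values below are log2 intensity, called levels, and differences are mmca minus mca4 on the log2 scale, so that 1 is a 2-fold difference. Errors are standard errors (SE) of a limma model fitted over all arrays of the series, and a gene was called at an adjusted p under 0.05. Levels of different probes are not comparable with each other. Precision is limited by the 2 arrays per group. The gamma arrays had median intensities of 1.55 to 1.66 and lacked 13.3 to 15.2% of probes, and the carbon arrays had medians of 1.05 to 1.06 and lacked 0.803 to 1.27%. The SD of the difference between 2 arrays of a group over genes was 0.207 for gamma mmca, 0.301 for gamma mca4, 0.182 for carbon mmca and 0.161 for carbon mca4, against a median of 0.204 over the 54 groups of the series.

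Both tumours had epithelial and mammary RNA in all 8 arrays. Epcam, an epithelial adhesion molecule, read 7.42 and 7.44 in gamma mmca, 7.20 and 6.81 in gamma mca4, 7.15 and 7.35 in carbon mmca and 7.14 and 7.29 in carbon mca4. The means of the unirradiated fibrosarcomas of the series were -0.15 in both cases, far below every mammary array. Csn3, which encodes the milk protein kappa-casein, read 6.19 and 6.44 in gamma mmca and 6.46 and 6.20 in gamma mca4. On carbon arrays Csn3 read 6.87 and 7.03 in mmca and 7.25 and 7.23 in mca4, against means of -0.73 and -1.10 in the fibrosarcomas. The label of mammary carcinoma thus matched Epcam and Csn3 in both tumours. The milk protein gene Lalba did not set them apart, with fibrosarcoma means of 2.02 and 1.79 against 1.35 to 2.04 on the mammary arrays. The gamma difference of Epcam was called at 0.43 (limma adjusted p = 0.0262), and Csn3 was called in neither experiment. Among the other defining markers, the milk protein genes Csn2 and Wap, the hormone receptor genes Esr1 and Pgr and the luminal keratin gene Krt18 were not analysed here, since no probe with that symbol alone existed or none passed the filters. The dropped Csn2 probe had group means between -2.94 and -2.51 where it had values.

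In the gamma experiment the tumours differed at 6690 of 12904 genes (limma, 51.8%), 3029 higher in mmca (23.5%) and 3661 lower (28.4%). In the carbon experiment they differed at 351 of 12958 genes (2.71%), 163 higher (1.26%) and 188 lower (1.45%). The median SE of a gene was 0.154 in both, since the model shares 1 estimate of each gene's spread over all groups. It is therefore no measure of equal spread in the 2 experiments. The root mean square difference over genes was 0.767 in the gamma and 0.271 in the carbon experiment. At least 2-fold calls numbered 760 higher and 979 lower in the gamma experiment, and 8 higher and 41 lower in the carbon experiment. The difference between the experiments itself passed the test for 4762 genes (36.9%).

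The carbon count rested on all 4 carbon arrays. It was 61 and 78 without replicate 1 or 2 of carbon mmca, and 19 and 94 without replicate 1 or 2 of carbon mca4. It was 2155 when the carbon contrast was fitted on its own 4 arrays, and the gamma contrast fitted likewise gave 5585 calls.

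**Figure D1:**
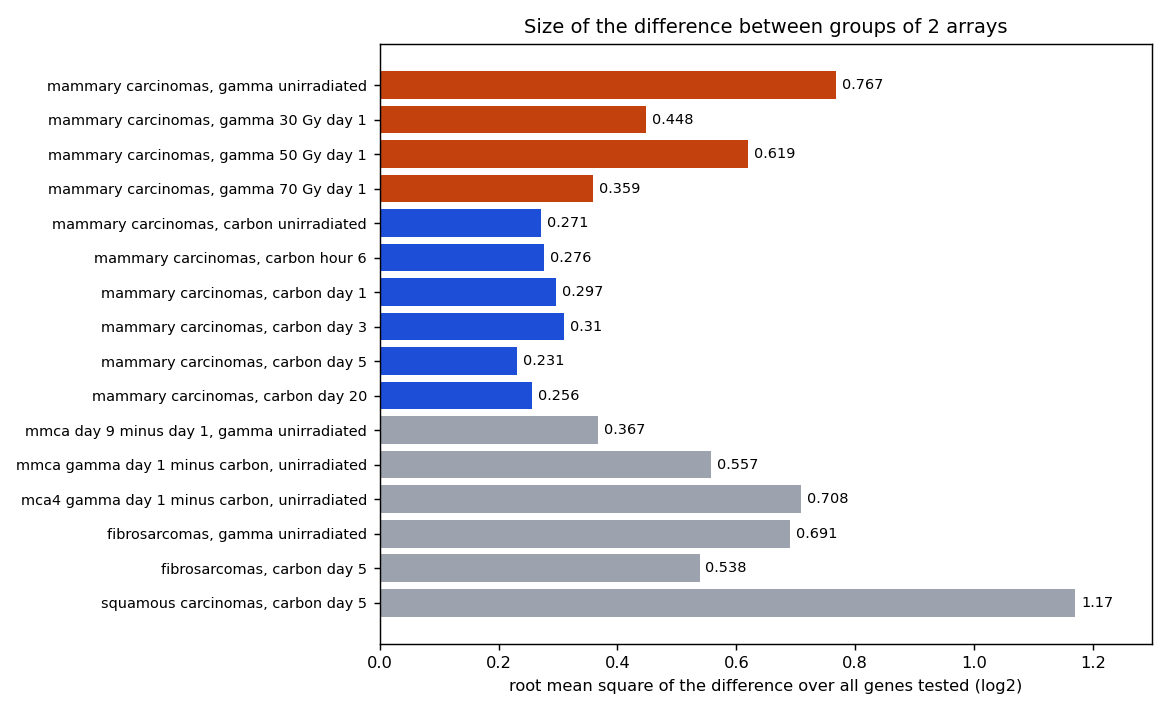
Root mean square of the log2 difference over all genes tested, for pairs of groups of 2 arrays (orange, mammary carcinomas in the gamma experiment; blue, in the carbon experiment; grey, other pairs set beside them). The unirradiated pair stood at 0.767 in the gamma experiment and at 0.271 in the carbon experiment, where the 6 carbon pairs lay between 0.231 and 0.31.

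Arrays of 1 tumour also differed between the experiments, by more than the tumours differed in the carbon experiment. Gamma mmca against carbon mmca gave 5208 calls (40.3%) and a root mean square difference of 0.557, and gamma mca4 against carbon mca4 gave 7125 calls (55%) and 0.708. The closest pair among these 4 groups was carbon mmca and carbon mca4. Unirradiated mmca of day 9 in the gamma experiment differed from day 1 mmca at 2743 genes (21.2%, root mean square 0.367). For scale, the unirradiated fibrosarcomas differed at 5877 genes (45.5%, 0.691), and after 30 Gy of carbon ions at day 5 the squamous carcinomas differed at 7350 (56.8%, 1.17), the fibrosarcomas at 2965 (22.9%) and the mammary carcinomas at 33 (0.255%). Experiment and its processing cannot be told apart from the difference between the gamma and the carbon arrays of 1 tumour.

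Skeletal muscle genes made the largest differences in the gamma experiment, all lower in mmca. Lists are counted over the members that passed the filters, here 30 of 35. Every list count below is to be read beside the shares over all genes. In the gamma experiment these were 23.5% higher and 28.4% lower, and in the carbon experiment 1.26% and 1.45%. Of the 25 muscle genes with a gamma difference, 21 were lower and 0 higher, against 28.4% lower among all genes, with a median of -4.53 against -0.05 over all genes. In the carbon experiment 1 was higher, 0 lower and 29 did not pass, with a median of 0.42 against 0.03. The summed intensity of the 13 muscle probes with a value on every array was 20.8 and 21.1 in gamma mmca and 422 and 364 in gamma mca4. On carbon arrays it was 122 and 131 in mmca and 98.3 and 95.1 in mca4. The carbon arrays of both tumours thus lay between the gamma arrays, and the groups did not overlap in either experiment.

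Tnnc2, the calcium-binding troponin C of fast muscle, read -1.72 and -1.66 in gamma mmca and 6.00 and 6.07 in gamma mca4. On carbon arrays it read 3.95 and 4.12 in mmca and 4.02 and 3.88 in mca4, which overlapped. The gamma difference was -7.72 ± 1.2 (SE, limma adjusted p = 7.77e-08) and the carbon difference 0.09 ± 1.2 (adjusted p = 0.985). Acta1, the skeletal alpha-actin, read 0.07 and 0.12 in gamma mmca against 6.34 and 5.80 in mca4. On carbon arrays Acta1 read 5.16 and 5.23 in mmca against 4.60 and 4.54 in mca4. That difference of 0.63 ± 0.97 was smaller than its SE and was not called (adjusted p = 0.81). Ttn, the giant sarcomere spring, differed by -5.55 ± 0.87 and 0.95 ± 0.87, and Actn3, the actin cross-linker of fast fibres, by -6.10 ± 0.94 and 0.51 ± 0.94. Myh4 and Pvalb, the myosin and the calcium buffer of fast fibres, gave -6.49 and -7.80 in the gamma experiment and -0.33 and -0.97 in the carbon experiment.

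Tnnt1, the troponin T of slow fibres, was the 1 gene of the muscle list called in both experiments, with opposite signs. It read -0.93 and -0.90 in gamma mmca and 1.06 in both gamma mca4 arrays, and 2.38 and 2.29 in carbon mmca against 0.37 and 0.52 in carbon mca4. Its differences were -1.98 ± 0.56 (limma adjusted p = 0.00229) and 1.89 ± 0.56 (adjusted p = 0.0475). Xirp2, an actin-binding protein of striated muscle, had no gamma test, since both gamma mmca arrays lacked a value, and read 3.88 and 3.91 in gamma mca4, 2.57 on both carbon mmca arrays and 1.11 and 1.28 in carbon mca4. The same held for Myl2, a slow and cardiac myosin light chain, with -1.22 and -1.01 in gamma mca4 and no value in gamma mmca.

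The promoters of Tnnc2 and Acta1 are shown because these genes had among the largest differences and shifted together across the 8 arrays. They run 5′ to 3′ from 250 bases before to 50 bases after the RefSeq start site on the minus strand of GRCm38.p6, at chr2:164779685-164779984 for Tnnc2 and chr8:123894726-123895025 for Acta1. Capitals mark CANNTG, the core bound by muscle helix-loop-helix factors, TATAAA on either strand, and the CArG box bound by serum response factor.
Tnnc2: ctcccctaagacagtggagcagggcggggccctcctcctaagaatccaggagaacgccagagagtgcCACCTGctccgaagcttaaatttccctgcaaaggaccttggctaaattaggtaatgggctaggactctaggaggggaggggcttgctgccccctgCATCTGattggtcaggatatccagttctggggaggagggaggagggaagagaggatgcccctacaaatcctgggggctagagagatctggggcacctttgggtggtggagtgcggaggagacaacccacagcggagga
Acta1: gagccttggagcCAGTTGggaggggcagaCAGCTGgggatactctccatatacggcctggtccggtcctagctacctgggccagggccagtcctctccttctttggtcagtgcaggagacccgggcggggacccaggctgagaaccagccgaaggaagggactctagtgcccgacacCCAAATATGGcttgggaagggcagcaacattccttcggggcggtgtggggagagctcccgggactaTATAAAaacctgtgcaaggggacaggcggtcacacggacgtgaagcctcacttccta
Each promoter held 2 CANNTG matches, a motif found in 72.3% of 32851 RefSeq promoters of this length, searched on both strands. The Acta1 promoter also held 1 TATAAA, present in 13.6% of promoters, and 1 CArG box, present in 1.63%. A MEF2 site, present in 3.19% of promoters, was also searched for and had 0 matches in either promoter. The marked motifs did not overlap, and a match is a string of letters and not a shown site.

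Genes of connective tissue were lower in gamma mmca as well. Of 29 fibroblast and matrix genes, 26 were lower in the gamma experiment, 0 higher and 3 did not pass (median -2.09), against 28.4% lower among all genes. In the carbon experiment 0 passed (median 0.03). Dcn, the collagen-binding proteoglycan decorin, read -0.35 and -0.38 in gamma mmca, 3.71 and 3.76 in gamma mca4, 2.68 and 2.80 in carbon mmca and 2.06 and 2.11 in carbon mca4. Gamma mmca was the low group and gamma mca4 the high one, with the carbon arrays between. The gamma difference was -4.10 ± 0.57 (limma adjusted p = 7.79e-09) and the carbon difference 0.65 ± 0.57 (adjusted p = 0.615). Thbs4, a matrix thrombospondin, gave -6.42 ± 0.86 and 0.81 ± 0.86. Lum, a keratan sulphate proteoglycan, gave -3.80 and 1.25, the growth factor gene Igf1 gave -3.57 and 0.57, and Col1a1, a chain of type I collagen, gave -2.22 and -0.04. Among 26 mesenchymal identity genes 16 were lower, 3 higher and 7 did not pass in the gamma experiment (median -0.83), and 1 was lower in the carbon experiment (median 0). Snai2, a repressor of epithelial genes, gave -2.27 and Pdgfrb, a receptor of pericytes and fibroblasts, -1.75, while Prrx1, a mesenchymal homeobox gene, gave 1.08. Vim, the mesenchymal intermediate filament, read between 6.00 and 6.39 on all 8 arrays and did not pass in either experiment.

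Genes of macrophages, antigen presentation, T and NK cells and complement had more lower than higher calls in gamma mmca. Of 24 macrophage genes 15 were lower, 1 higher and 8 did not pass in the gamma experiment (median -1.22), against 28.4% lower among all genes. In the carbon experiment 0 passed (median 0.09). C1qa, a chain of complement C1q made by macrophages, read 3.15 and 3.27 in gamma mmca, 5.79 and 5.66 in gamma mca4, 5.08 and 5.24 in carbon mmca and 4.97 and 4.83 in carbon mca4. Gamma mmca was the lowest group and gamma mca4 the highest, with the carbon arrays between. The gamma difference was -2.52 ± 0.21 (limma adjusted p = 1.33e-16) and the carbon difference 0.26 ± 0.21 (adjusted p = 0.562). Tyrobp, a signalling adaptor of myeloid receptors, gave -3.01, and the 1 macrophage gene higher in gamma mmca was Mmp12, macrophage elastase, at 2.07 ± 0.43. Mmp12 gave -1.33 ± 0.43 in the carbon experiment (adjusted p = 0.0759).

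Of 11 genes of the MHC class II pathway, which presents peptides to T helper cells, 9 were lower in gamma mmca and 0 higher (median -1.38), and 0 passed in the carbon experiment (median 0.04). The shares over all genes in the gamma experiment were 28.4% lower and 23.5% higher, here and for the lists that follow. Cd74, the invariant chain, read 3.54 and 3.39 in gamma mmca, 6.19 and 5.40 in gamma mca4, 5.70 on both carbon mmca arrays and 5.51 on both carbon mca4 arrays. Of 18 T and NK cell genes 12 were lower, 0 higher and 6 did not pass (median -0.97). They included the T cell receptor chain gene Cd3g (-2.59) and Nkg7, a granule protein of cytotoxic cells (-1.91), both no longer called when day 9 mmca arrays replaced the day 1 arrays (-1.27 and -1.03). In the carbon experiment 0 of the 18 passed and the median was 0.50. Of 13 complement genes 11 were lower in gamma mmca (median -1.37), and of 28 chemokine and cytokine genes 16 were lower and 1 higher (median -0.51), with the chemotactic Ccl8 at -3.41 and Ccl11 at -2.92. In the carbon experiment 0 genes of either list passed, with medians of 0.26 for complement and 0.11 for chemokines and cytokines. Endothelial genes split, with 13 lower, 4 higher and 9 not passing of 26 in the gamma experiment (median -0.51), and 1 lower in the carbon experiment (median -0.09). Sox18, a vessel transcription factor, gave -2.42, whereas Esm1, a secreted product of tip cells, gave 2.01 ± 0.34 in the gamma and -1.38 ± 0.34 in the carbon experiment.

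**Figure D2:**
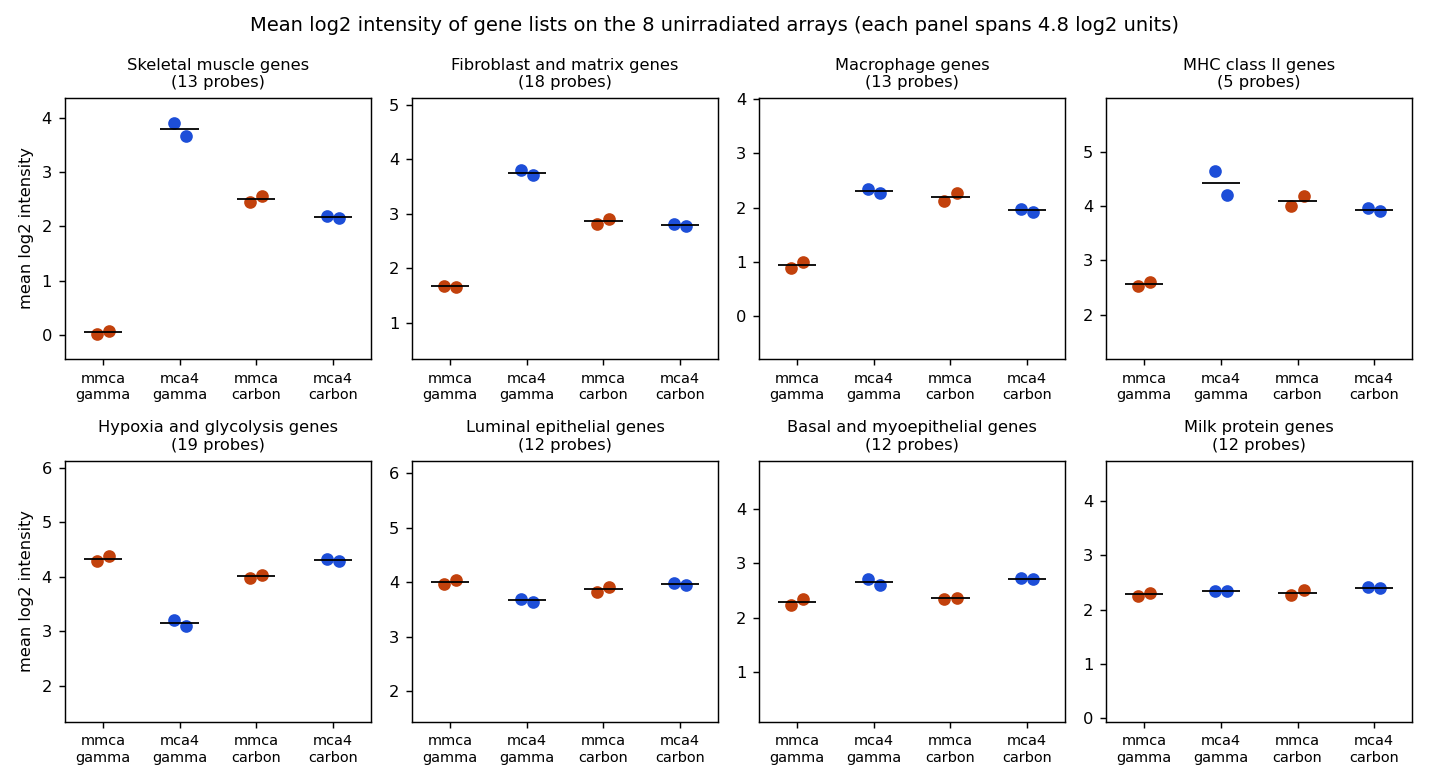
Mean log2 intensity of 8 gene lists on each of the 8 unirradiated arrays (points; orange mmca, blue mca4; line, mean of 2 arrays), over list members with a value on every array of the series. Skeletal muscle genes ran from 0.02 in gamma mmca to 3.9 in gamma mca4 with carbon arrays at 2.15 to 2.55, whereas milk protein genes stayed between 2.26 and 2.42.

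The levels of host tissue genes moved with the tumour groups across dose and time too, and their part in the other differences was not tested. Over 10 conditions shared by both tumours, the mean level of the muscle probes ran from 0.05 to 3.97 in mmca and from 1.16 to 4.75 in mca4. The 2 arrays of a group never lay more than 0.24 apart in these 20 groups. At day 1 after gamma rays the muscle mean was 0.97 in mmca and 3.54 in mca4 at 30 Gy, 3.37 and 3.39 at 50 Gy, and 0.68 and 2.27 at 70 Gy. In the carbon experiment mca4 stood above mmca at day 1 (3.70 and 2.39) and below it at day 3 (1.26 and 2.73). Neither tumour was therefore the one with more muscle RNA throughout. The second pair of unirradiated mmca arrays, taken at day 9 of the gamma experiment, read 0.12 and 1.29, between the day 1 mmca arrays and gamma mca4, and further apart than the arrays of any of the 20 groups.

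**Figure D3:**
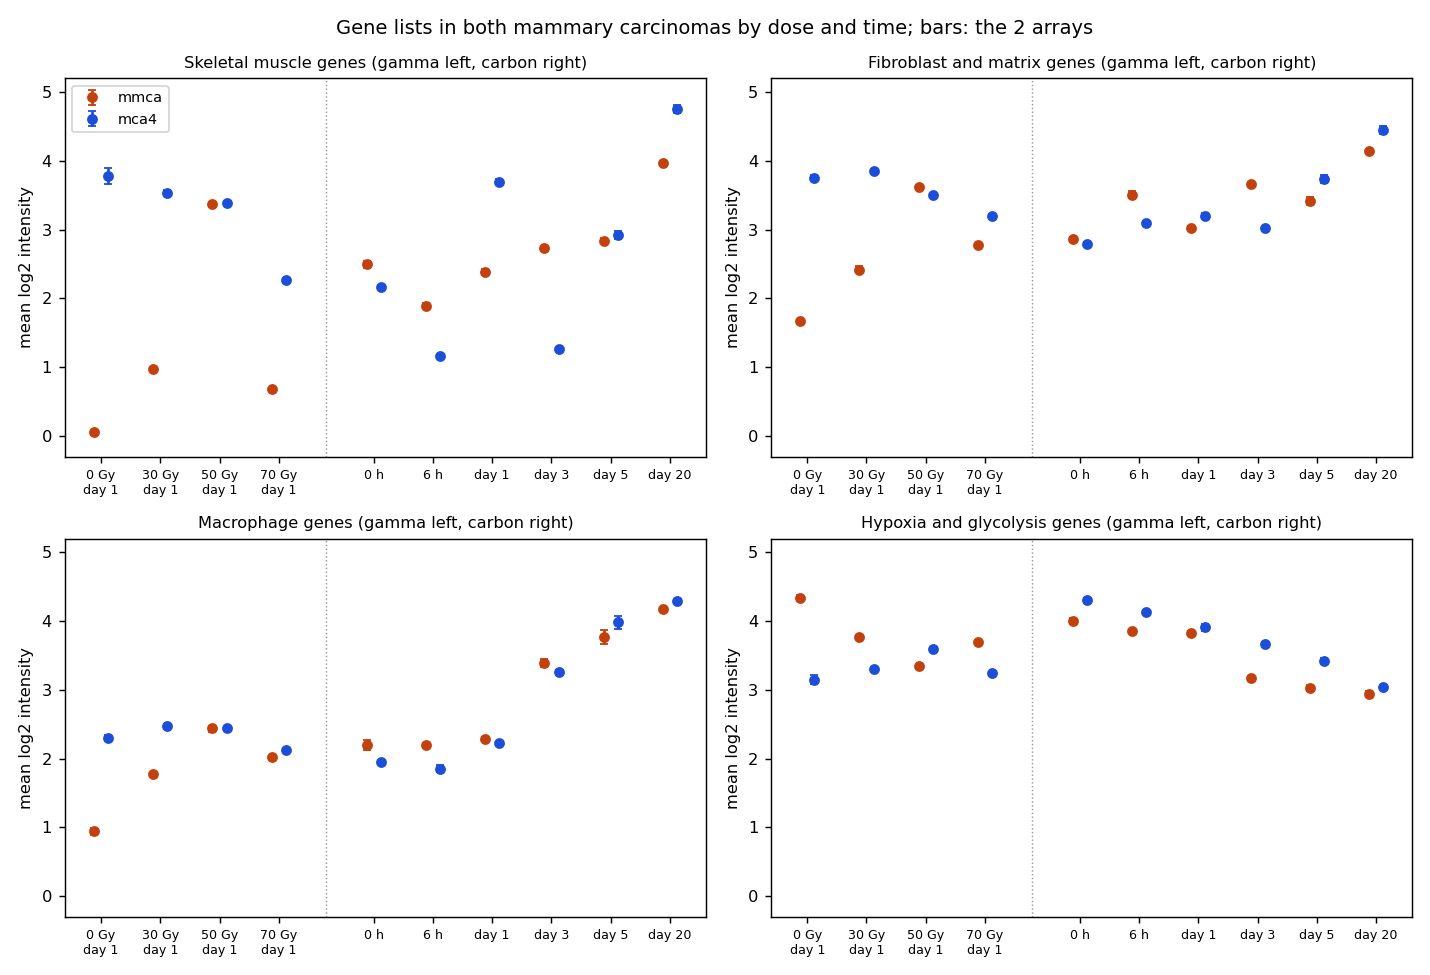
Mean log2 intensity of 4 gene lists in mmca (orange) and mca4 (blue) at each shared dose or time (left, gamma; right, carbon), with bars spanning the 2 arrays. Muscle genes in carbon mca4 went from 1.16 at hour 6 to 3.7 at day 1 and 1.26 at day 3, and hypoxia and glycolysis genes ran higher in mmca at 0 Gy (4.33 and 3.15) but lower at carbon hour 0 (4 and 4.31).

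Hypoxia and glycolysis genes ran opposite to the host tissue genes. Cells short of oxygen stabilise HIF transcription factors, which raise glucose uptake, glycolysis and vessel growth signals. Of 30 genes tested, 21 were higher in gamma mmca, 3 lower and 6 did not pass, with a median of 0.92, against 23.5% higher among all genes. In the carbon experiment 0 passed, with a median of -0.14. Adm, the vasodilator peptide adrenomedullin, read 3.55 and 3.61 in gamma mmca and -1.34 and -1.19 in gamma mca4. On carbon arrays Adm read 1.98 and 1.97 in mmca and 3.42 and 3.20 in mca4, so that carbon mmca was the lower group. Its differences were 4.84 ± 0.40 (limma adjusted p = 2.02e-16) and -1.33 ± 0.40 (adjusted p = 0.0509). Vegfa, the vessel growth factor, gave 2.62 ± 0.27 and -0.87 ± 0.27, and Car9, a HIF-dependent carbonic anhydrase, 1.90 ± 0.32 and -0.97 ± 0.32. The oxygen sensor Egln1 gave 2.44 and -0.34 and the glucose transporter Slc2a1 gave 1.5 and -0.65. Lox, which cross-links collagen and is also on the matrix list, was lower in gamma mmca (-2.85), as was Pfkfb4, a regulator of glycolysis (-1.10). In the irradiated arrays the list's median was 0.23 in the gamma and -0.25 in the carbon experiment, with 13 of 30 higher and 1 lower in the first and 14 lower and 0 higher in the second. Over all genes, 14% were higher in irradiated gamma arrays and 14.5% lower in irradiated carbon arrays.

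Among epithelial genes the gamma difference favoured mmca for luminal and junction genes. Of 26 tested, 15 were higher in gamma mmca, 2 lower and 9 did not pass (median 0.43), against 23.5% higher among all genes. In the carbon experiment 1 was lower and 25 did not pass (median -0.13). The filter on missing values dropped the luminal markers Krt19 (80.2% of arrays with a value) and Cldn7 (81%). Their gamma means went in opposite directions, 5.34 in mmca and 4.67 in mca4 for Krt19, and 6.22 and 6.84 for Cldn7. Cdh1, the epithelial cadherin, read 5.36 and 5.44 in gamma mmca and 4.52 and 4.08 in gamma mca4, and between 5.18 and 5.56 on the 4 carbon arrays. Its gamma difference was 1.10 ± 0.23 (limma adjusted p = 5.54e-05) and its carbon difference 0.15 ± 0.23 (adjusted p = 0.815). Gamma mca4 was the only low group. F11r, a tight junction adhesion protein, gave 2.06 and 0.29, and Pkp2, a desmosome protein, 1.66 and -0.40. Krt8, a simple keratin of luminal cells, read 1.18 and 0.97 in gamma mmca and -0.39 and -0.42 in gamma mca4, but 1.40 and 1.67 in carbon mmca against 2.13 and 1.76 in carbon mca4. It gave 1.48 ± 0.28 (adjusted p = 1.13e-05) and -0.41 ± 0.28 (adjusted p = 0.497), and in irradiated arrays 0.99 for gamma and -0.36 for carbon, both called.

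Of 20 mammary and epithelial transcription factor genes, 10 were higher in gamma mmca, 3 lower and 7 did not pass (median 0.42), against 23.5% higher among all genes. In the carbon experiment 0 passed (median -0.07). Sox9, a factor of luminal progenitors, gave 1.56 and Grhl2, which keeps epithelial junction genes on, gave 0.90. Tbx3 and Foxa1, factors of hormone-responsive luminal cells, were lower at -1.44 and -0.78. Milk protein and secretory genes did not lean clearly, with 3 higher, 5 lower and 12 not passing of 20 in the gamma experiment (median -0.11) and 0 passing in the carbon experiment (median -0.05). Lalba, the milk sugar cofactor alpha-lactalbumin, read 1.89 and 1.92 in gamma mmca, 1.86 and 2.04 in gamma mca4, 1.56 and 1.49 in carbon mmca and 1.35 and 1.43 in carbon mca4.

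Basal and myoepithelial genes had more carbon calls than the luminal genes, all lower in mmca. Of 23 tested, 4 were lower and 0 higher in the carbon experiment (median -0.28), where 1.45% of all genes were lower. In the gamma experiment 7 were lower and 3 higher (median -0.26), a share of lower genes near the 28.4% of all genes. The 4 were Cnn1, Sfn, Lama3 and Lamb3, and Cnn1 alone was also called in the gamma experiment. Cnn1, the contractile protein calponin, read -0.66 and -0.61 in gamma mmca, 0.20 and 0.41 in gamma mca4, -0.87 and -0.69 in carbon mmca and 0.53 and 0.42 in carbon mca4. All 4 mmca arrays lay below all 4 mca4 arrays, a gap that adds no support, since these arrays also gave the calls. The differences were -0.94 ± 0.31 (limma adjusted p = 0.00893) and -1.26 ± 0.31 (adjusted p = 0.0145), and in irradiated arrays -0.57 and -0.53, both called.

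Sfn, a cell cycle regulator of squamous and basal cells, gave -0.94 ± 0.18 in the carbon experiment (limma adjusted p = 0.00142) and -0.35 ± 0.18 in the gamma experiment (adjusted p = 0.105). Lama3 and Lamb3, chains of the laminin under basal cells, gave -0.74 and -0.95 in the carbon experiment and -0.26 and 0.42 in the gamma experiment. Krt5, a basal keratin, read -0.55 and -0.34 in gamma mmca, 1.61 and 1.65 in gamma mca4, 0.81 and 0.84 in carbon mmca and 1.61 and 1.5 in carbon mca4. All 4 mmca arrays lay below all mca4 arrays. Krt5 gave -2.07 ± 0.37 in the gamma experiment (limma adjusted p = 2.07e-06) and -0.72 ± 0.37 in the carbon experiment (adjusted p = 0.3). Its partner Krt14 gave -1.02 ± 0.30 (adjusted p = 0.00315) and -0.72 ± 0.30 (adjusted p = 0.182), again with no overlap of the tumours. For neither keratin did the carbon difference pass. The share of all genes with such a gap was not counted, so the gaps add no support. In irradiated gamma and carbon arrays Krt5 gave -0.33 (adjusted p = 0.243) and -0.43 (adjusted p = 0.0457), and Krt14 gave 0.03 (adjusted p = 0.928) and 0.24 (adjusted p = 0.193). For both keratins the mean over the experiments was called, at -1.40 ± 0.26 for Krt5 and -0.87 ± 0.21 for Krt14, as it was for 5169 of all genes (40.1%). With 1 value per group, limma called 0 genes in that mean, these keratins included, and 283 had an unadjusted p under 0.05.

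Growth factor genes known as insertion sites of the mammary tumour virus did not separate the tumours in both experiments. Of 15 tested, 3 were higher and 5 lower in gamma mmca (median -0.19), and 0 passed in the carbon experiment (median 0.16). Wnt1 read 0.89 to 1.54 and Fgf3 0.93 to 1.66 over the 8 arrays, with no call. Fgf3 means in the unirradiated fibrosarcomas were 1.53 and 1.28, within that range. The insulin-like growth factor gene Igf2 gave -3.39 in the gamma experiment and 0.60 in the carbon experiment. The receptor gene Erbb2 read 1.88 to 2.4 with no call. Of 18 FGF receptors, ligands and targets, 8 were higher and 1 lower in gamma mmca (median 0.27), against 23.5% higher among all genes. The 8 included the feedback inhibitor Spred1 at 0.95, and 0 passed in the carbon experiment (median 0.12).

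Interferon-stimulated genes had calls in both directions in the gamma experiment, 8 higher, 6 lower and 23 not passing of 37 (median -0.13), and 2 higher in the carbon experiment, with a median of 0.40 there. The 2 were Mx1 and Trim30a, antiviral genes with carbon differences of 0.96 ± 0.27 and 0.86 ± 0.22 (limma adjusted p = 0.0376 and 0.0199) and gamma differences of -0.31 and 0.17. Rsad2, the antiviral enzyme viperin, was higher in gamma mmca by 2.69 ± 0.41 and gave 0.36 in the carbon experiment. Mitosis genes had 12 higher and 3 lower of 35 in the gamma experiment (median 0.07) and 1 higher in the carbon experiment (median 0.11). That gene was Ttk, a spindle checkpoint kinase, at 0.45 ± 0.19 (adjusted p = 0.0378) and 0.66 ± 0.19 (adjusted p = 0.0361). Of 41 respiratory chain genes, 22 were lower and 4 higher in gamma mmca (median -0.33) and 1, Sdha, was higher in the carbon experiment (median 0.05). Cytosolic ribosomal protein genes were nearly level, with 1 of 34 called in the gamma experiment and 0 in the carbon experiment. The shares over all genes in the gamma experiment were 23.5% higher and 28.4% lower.

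Other lists divided or stayed near the median of all genes. DNA replication genes had 8 higher and 9 lower of 31 in the gamma experiment (median 0.05) and 1 higher in the carbon experiment (median 0.33). Fatty acid and cholesterol synthesis genes had 10 higher and 8 lower of 32 (median 0.03), with 2 lower in the carbon experiment (median 0.21). Of 33 p53 target genes 10 were higher and 8 lower (median 0.08), and 1 was lower in the carbon experiment (median 0.06). Antioxidant genes had 4 higher and 10 lower of 31 (median -0.08) and matrix proteases and inhibitors 5 higher and 9 lower of 22 (median -0.48), with 0 and 2 lower in the carbon experiment (medians -0.13 and -0.29).

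Among signalling lists, Wnt receptors, antagonists and targets had 9 higher and 7 lower of 33 (median 0.04), Notch genes 1 higher and 7 lower of 15 (median -0.29), and ErbB receptors and ligands 3 higher and 2 lower of 12 (median -0.04). Their carbon calls were 0, 0 and 1 lower, with medians of -0.07, 0.01 and -0.10. Hormone receptors and targets had 7 higher and 3 lower of 18 in the gamma experiment (median -0.11) and 1 higher in the carbon experiment (median -0.08). That gene was Insr. Hox genes had 4 higher and 6 lower of 25 (median 0.01), and 0 passed in the carbon experiment (median 0.17).

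Among cell type lists, neutrophil and acute inflammation genes had 5 lower and 0 higher of 17 (median -0.26), B and plasma cell genes 2 and 2 of 11 (median -0.19), mast cell and eosinophil genes 1 and 1 of 10 (median -0.26), and MHC class I genes 4 lower and 2 higher of 12 (median -0.30). None of these 4 lists had a carbon call, and their carbon medians were -0.43, 0.08, -0.06 and 0.24. Adipocyte genes had 5 lower and 3 higher of 9 (median -0.76), with 1 lower in the carbon experiment (median 0.01). Cornified epithelial genes had 3 lower and 2 higher of 16 (median -0.07), with 2 lower in the carbon experiment (median -0.09). Basement membrane genes had 4 higher and 3 lower of 16 and no carbon call, with medians of 0.01 and 0.02.

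The experiments called 194 genes in common, of which 117 had 1 sign (0.907% of the genes tested in both) and 77 opposite signs (0.597%). The 117 made up 33.3% of the carbon calls and 1.75% of the gamma calls, and the 77 made up 21.9% of the carbon calls. Of the 163 genes higher in carbon mmca 73 were kept, where 23.5% of all genes were called higher in the gamma experiment. Of the 188 lower 44 were kept, a share not above the 28.4% of all genes called lower in the gamma experiment. Another 157 carbon calls were not called in the gamma experiment. No gene was at least 2-fold higher in mmca in both experiments, and 3 were at least 2-fold lower in both, namely Ifitm1, Syn1 and Ppbp. Ppbp lay near the intensity minimum in mmca, and the carbon difference of Syn1 rested on 1 array. Cpped1 (0.35 and 0.41) lay just inside the threshold, and Higd2a (-0.45 and -0.43) and Selenof (1.15 and 0.55) just outside.

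The size of this set depended on the carbon arrays and on how the spread was estimated. It was 3 without replicate 1 of carbon mca4 and 28 without replicate 2, and 16 and 22 without replicate 1 or 2 of carbon mmca. It was 575 with each contrast fitted on its own arrays, where 574 further genes had opposite signs.

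**Figure D4:**
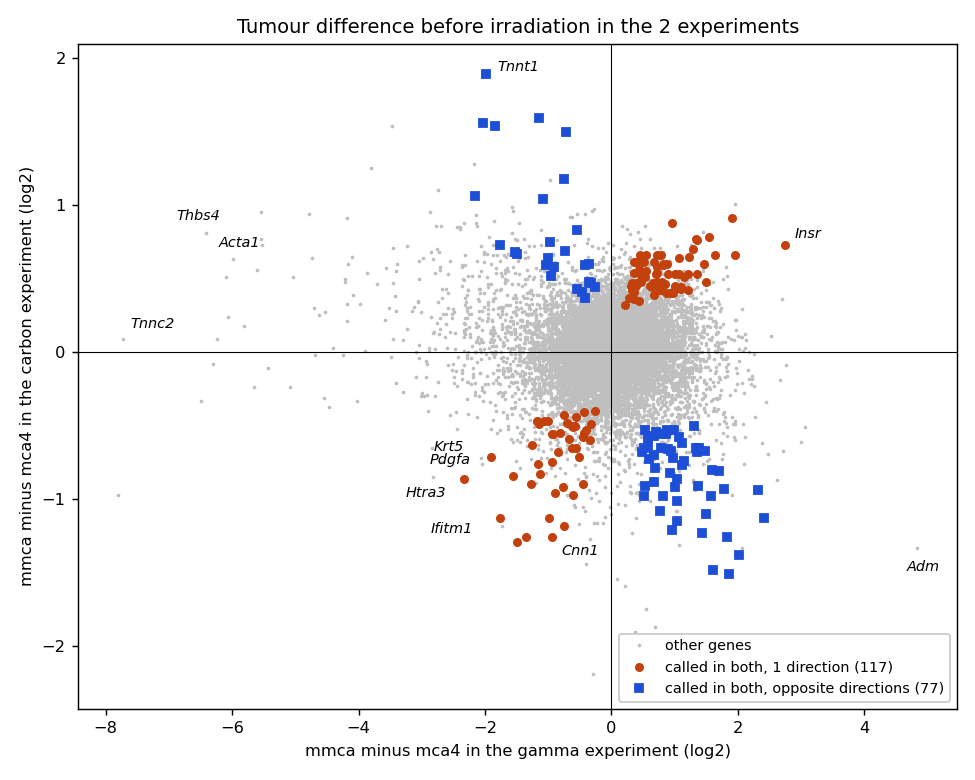
Each gene's mmca minus mca4 difference (log2) in the gamma experiment (x) against the carbon experiment (y), with the 117 genes called in 1 direction in orange and the 77 called in opposite directions in blue. The gamma axis spans from -7.8 to 4.84, and muscle genes such as Tnnc2 (-7.72 and 0.09) lie far to the left near a carbon difference of 0.

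The largest mean difference over both experiments among the 73 genes higher in mmca was that of Insr, the insulin receptor, a membrane kinase that drives glucose and lipid uptake. It read 3.63 and 3.61 in gamma mmca, 1.12 and 0.61 in gamma mca4, 2.33 on both carbon mmca arrays and 1.5 and 1.69 in carbon mca4. Every mmca array was above every mca4 array. For genes called in both experiments such a gap adds no support, since calls on these same arrays chose them. The differences were 2.75 ± 0.20 (limma adjusted p = 2.8e-19) and 0.73 ± 0.20 (adjusted p = 0.0241). In irradiated arrays Insr was higher in carbon mmca by 0.86 ± 0.087 and gave -0.12 ± 0.11 in the gamma experiment (adjusted p = 0.442).

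Ddx60, an antiviral RNA helicase, read 2.98 and 2.86 in gamma mmca, 1.76 and 2.17 in gamma mca4, 3.09 and 3.02 in carbon mmca and 2.14 and 2.20 in carbon mca4. All mmca arrays lay above all mca4 arrays. Its differences were 0.96 ± 0.26 and 0.88 ± 0.26 (limma adjusted p = 0.00112 and 0.04). Zbtb2, a zinc finger repressor, gave 1.64 ± 0.16 and 0.66 ± 0.16, and was higher in mmca in irradiated arrays of both experiments (0.33 and 0.80). Myo9a, an unconventional myosin, gave 1.5 ± 0.14 and 0.48 ± 0.14, and 0.35 and 0.45 in irradiated arrays. Pigh, an enzyme subunit of the GPI anchor pathway, gave 1.47 ± 0.14 and 0.60 ± 0.17, with 1 carbon mca4 array missing from its fit. Serinc4, Wdr92, Tgm4 and Gpbp1 had mean differences over both experiments of 1.17, 1.06, 1.00 and 0.94.

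Some smaller members share a complex, and they were picked out after their values were seen and are given without a test. Suz12 and Eed, core subunits of Polycomb repressive complex 2, gave 0.38 and 0.32 in the gamma and 0.61 and 0.46 in the carbon experiment, and its accessory protein Mtf2 gave 0.87 and 0.40. The kinetochore genes Knl1 and Nuf2 gave 1.01 and 0.82 in the gamma and 0.45 and 0.60 in the carbon experiment. The recombination partner Palb2 gave 0.97 and 0.40.

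Among the 44 genes lower in mmca, Htra3, a secreted serine protease, had the largest mean difference (-1.60 ± 0.16). It read 0.71 and 0.79 in gamma mmca, 3.08 and 3.09 in gamma mca4, 1.22 and 1.20 in carbon mmca and 2.08 and 2.07 in carbon mca4. The tumours did not overlap in either experiment. The differences were -2.34 ± 0.23 (limma adjusted p = 1.01e-13) and -0.86 ± 0.23 (adjusted p = 0.0223), and in irradiated arrays -0.56 for gamma (adjusted p = 0.000738) and -0.19 for carbon (adjusted p = 0.166). Its relative Htra1 gave -0.77 ± 0.17 and -0.92 ± 0.17, and gave 0.05 and -0.08 in irradiated arrays. The means of Htra1 in the unirradiated fibrosarcomas were 6.67 and 5.96, above all 8 mammary arrays.

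Ifitm1, an interferon-inducible membrane protein that blocks virus entry, read 2.48 and 2.62 in gamma mmca, 4.22 and 4.42 in gamma mca4, 3.10 and 3.08 in carbon mmca and 4.25 and 4.19 in carbon mca4. The mca4 arrays of both experiments lay close together, and all mmca arrays lay below them. Its differences were -1.77 ± 0.29 (limma adjusted p = 4.88e-07) and -1.13 ± 0.29 (adjusted p = 0.0198), and in irradiated arrays -0.59 and -0.58, both called. Pdgfa, a growth factor for fibroblasts, gave -1.91 ± 0.17 and -0.71 ± 0.17. Inhba, which encodes the activin A subunit, gave -1.13 ± 0.22 and -0.83 ± 0.22, and -0.60 and -0.26 in irradiated arrays, both called.

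Ppbp, a platelet chemokine, read -2.54 and -2.38 in gamma mmca, -1.14 and -1.08 in gamma mca4, -2.38 and -2.05 in carbon mmca and -0.76 and -1.14 in carbon mca4. It was called lower in irradiated carbon arrays (-1.58, limma adjusted p = 4.31e-13) but gave 0.38 in irradiated gamma arrays (adjusted p = 0.115). Syn1, a synaptic vesicle protein, rested on 1 array, since carbon mca4 read 0.38 and -2.64 against -2.15 and -2.69 in carbon mmca. Krt42, a type I keratin gene, gave -1.56 ± 0.23 and -0.84 ± 0.23. F10, the clotting protease factor X, gave -1.28 ± 0.24 and -0.90 ± 0.24, and Lrrc32, which presents latent TGF-beta, -1.17 ± 0.21 and -0.76 ± 0.21. Cryba4, a lens crystallin gene, read 1.77 and 1.86 in gamma mmca, 2.82 and 2.81 in gamma mca4, 1.74 and 1.93 in carbon mmca and 2.95 and 2.98 in carbon mca4. In irradiated arrays Cryba4 gave -0.10 and 0.14, with no call.

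**Figure D5:**
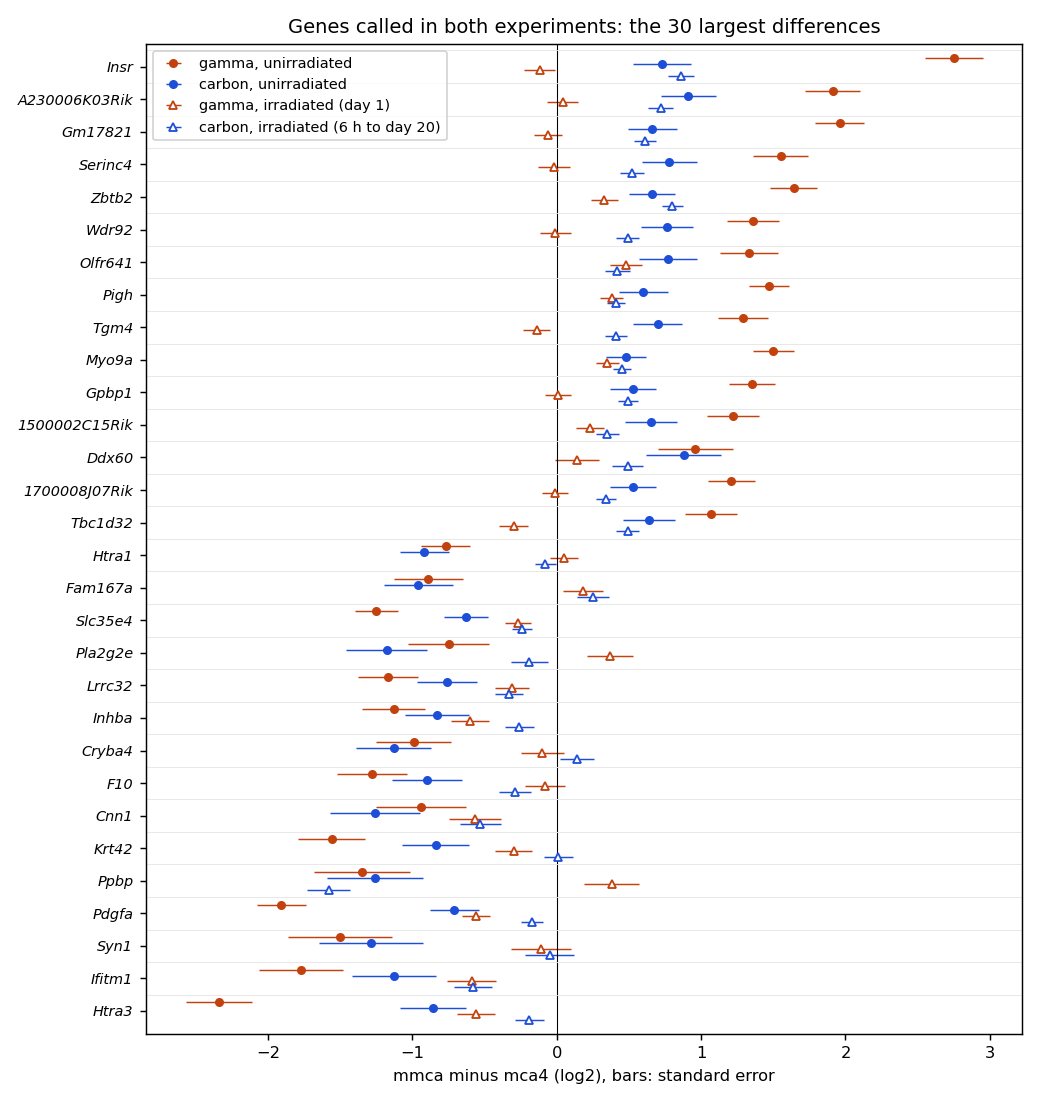
Differences (log2, bars SE) of the 15 genes with the largest positive and the 15 with the largest negative mean difference among those called in both experiments, in unirradiated arrays (filled circles) and irradiated arrays (open triangles) of the gamma (orange) and carbon (blue) experiment. Insr stands at 2.75 and 0.73 before irradiation and at -0.12 and 0.86 after it, and Ifitm1 and Cnn1 are negative in all 4.

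The irradiated arrays were in neither contrast that chose the 117 genes, although the filters and the error of each gene were taken over all arrays of the series. They gave the same tumour contrast at 30, 50 and 70 Gy of gamma rays at day 1 and at 5 times after carbon ions. Over all genes, 3841 were called in irradiated gamma arrays (29.7%), 1813 higher in mmca (14%) and 2028 lower (15.7%), a split that became 3075 higher and 1003 lower after quantile normalization. In irradiated carbon arrays 3070 were called (23.7%), 1200 higher (9.28%) and 1870 lower (14.5%), or 1717 and 908 after quantile normalization. With 1 value per group, 2 and 1388 genes were called.

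Of the 73 genes higher in mmca, 72 were also above 0 in irradiated carbon arrays and 61 were called there, with a median of 0.25. In irradiated gamma arrays 48 of the 73 were above 0, 21 were called higher and 6 called lower, with a median of 0.05. Of the 44 genes lower in mmca, 40 were below 0 in irradiated carbon arrays with 28 called, and 36 were below 0 in irradiated gamma arrays with 18 called lower and 2 called higher. Their medians were -0.22 and -0.16, against -0.03 over all genes in both. After quantile normalization the medians over all genes were 0.022 in irradiated carbon and 0.064 in irradiated gamma arrays. The gamma median of 0.05 of the 73 genes thus lay within the shift that the normalization makes. In the unirradiated arrays, which chose the genes, the medians of the mean difference were 0.63 and -0.74.

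In all 4 contrasts 33 genes were called in 1 direction, 17 higher and 16 lower in mmca. They included Zbtb2, Myo9a, Pigh, Mtf2 and Erbin, a scaffold of the ErbB2 receptor, on the higher side, and Cnn1, Ifitm1, Inhba and Srgn, the granule proteoglycan serglycin, on the lower side. The higher side also held the olfactory receptor genes Olfr641 and Olfr354. Zbtb2, Myo9a and Pigh were dim, with mean levels over all arrays of -0.23, -0.35 and -0.5, where the median over all genes was 2.24. The unirradiated gamma arrays stood apart in host tissue genes. When they were left out of the rule, 44 genes were called in 1 direction in the 3 other contrasts. Those of the 44 that were among the 117 are by definition the same 33 genes, so this overlap is no separate check.

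Of the 77 genes called with opposite signs, 51 were higher in mmca in the gamma experiment and lower in the carbon experiment, and 26 the reverse. Cav1, the coat protein of caveolae, read 2 and 2.01 in gamma mmca, 0.18 and 0.62 in gamma mca4, 1.58 and 1.40 in carbon mmca and 3.07 and 2.88 in carbon mca4. Its level changed more between the mca4 groups than between the mmca groups. Its differences were 1.61 ± 0.31 and -1.48 ± 0.31. Ccn1, a matrix-associated signalling protein, gave 0.95 and -1.21, Vcl, the focal adhesion protein vinculin, 1.49 and -1.10, and Klf4, an epithelial zinc finger factor, 1.78 and -0.93. On the other side stood the developmental myosins Myh3 (-1.85 and 1.54) and Myh8 (-1.15 and 1.59), beside Tnnt1. These genes were picked out after their values were seen.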

How the data were processed

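The authors deposited 1 table of array intensity for the series, on a linear scale, with medians of 1.05 to 1.66 on the 8 arrays used. Image software, background correction and normalization are not given in the sources used here. Per the labels' protocols, ISOGEN and RNeasy served for extraction, and Cy5-labelled material went onto CodeLink arrays. Arrays were grouped by the submitters' titles.

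The deposited intensity was raised to a minimum of 0.1269 (percentile 5 of the values above 0) and converted to log2 here, and gaps were not filled. Of 36227 probes, 21615 carried 1 symbol in the platform annotation, 681 several and 13931 none, and 21487 were matched to RefSeq by Entrez identifier. Probes with a value on at least 90% of arrays and a mean above the 20th percentile were kept, 1 per gene (the brightest), which gave 12962 genes. limma 3.58.1 in R 4.3.3 fitted group means over the 81 gamma and 40 carbon arrays in 54 groups (67 residual degrees of freedom, mean-variance trend), and p-values were adjusted by Benjamini-Hochberg over all genes. The scripts were tested on simulated data.

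The tumour groups share replicate numbers, but replicate differences of same-numbered arrays correlated at -0.203 in the gamma and -0.157 in the carbon experiment, so the numbers were not treated as pairs.

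Named genes were the 15 largest and 15 smallest mean differences among genes called in both, up to 4 such members of each list, fixed epithelial and tumour markers, the 5 largest sign changes and up to 6 genes listed on gamma arrays of 1 tumour only. Genes without a well-known function were passed over, and other list members were chosen as examples after their values were seen. The genes, the 37 lists and the tests were chosen with earlier results of these data known. Alternatives were another normalization, filter, floor, treatment of missing values, variance model or control group, array weights, own arrays, 1 value per group, the replicate block and leaving out each array. The crossed block and the count without unirradiated gamma arrays were added after seeing the data. Promoters came from RefSeq (GRCm38.p6). Figures used matplotlib 3.10.9 in Python 3.11.15.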

Additional observations from a re-analysis of the deposited data

Results flagged for a closer look

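The tumour difference itself changed between the experiments for 4762 genes (limma interaction term), which was 36.9% of the genes tested. Among the named genes with a test, 21 of 48 passed. They include Tnnc2, Thbs4, Acta1, Actn3 and Ttn, which were named because this change was among the largest. The count among named genes therefore adds no support. Values here are the gamma difference minus the carbon difference on the log2 scale, and their causes were not tested. For muscle and matrix genes they were -7.81 for Tnnc2, -7.23 for Thbs4, -6.61 for Acta1, -6.61 for Actn3 and -6.51 for Ttn. Among epithelial markers they were 1.89 for Krt8, 0.96 for Cdh1 and -1.35 for Krt5.

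Several genes called in both experiments with 1 sign also differed in size. They were larger in the gamma experiment by 2.02 for Insr, 1.3 for Gm17821, 1.02 for Myo9a, 1.01 for A230006K03Rik, 0.98 for Zbtb2 and 0.87 for Pigh. Smaller values were 0.82 for Gpbp1, 0.76 for Serinc4, 0.69 for 1700008J07Rik and 0.59 for Tgm4. Among genes lower in mmca the values were -1.47 for Htra3, -1.19 for Pdgfa and -0.63 for Slc35e4. Groups of 2 arrays were too small to look for single arrays that stood apart.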

How the results depend on the processing

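Counts within 1.5 times of those reported held for the gamma contrast under each alternative run. The carbon contrast gave 2330 calls with array weights and 2155 on its own arrays, and 19 to 94 when 1 array was left out. Genes called in both numbered 180 with every probe tested, 653 with array weights (106 of the 117 among them), 575 on own arrays (94 among them), 44 without the unirradiated gamma arrays, and 3 to 109 when 1 array was left out. Quantile normalization gave 82, of which 58 were among the 117. Irradiated gamma gave 7463 with array weights, 7114 on own arrays, 2 with 1 value per group and 2973 to 3517 when 1 array was left out. Irradiated carbon gave 5590, 5153, 1388 and 2395 to 3189. The mean over both experiments gave 0 calls with 1 value per group in limma (283 genes at an unadjusted p under 0.05), and 4229 to 4710 when 1 array was left out. The gamma contrast gave 5298 to 5806 and the difference between experiments 3811 to 4468 in that case. The cause of these shifts was not tested.

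With the replicate number as a block, counts were 6722 for gamma, 357 for carbon, 123 for both, 5195 for the mean, 4779 for the difference between experiments, 3889 for irradiated gamma and 3095 for irradiated carbon. With the pairing crossed they were 6723, 363, 124 and 5199 for the first 4. Single gene gamma and mean differences kept their sign wherever called, and in 88 of 2413 gene and setting combinations a call was lost. The carbon difference and the call in both experiments were not scored for single genes. Of the 88 losses, 40 came with 1 value per group, where 7 were unchanged. With 1 value per group no residual degrees of freedom were left for the gamma, carbon and interaction contrasts, which were not run.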

Other observations

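Probe values missing on 1 tumour gave a further view of the gamma arrays. On both gamma arrays of mmca, 181 probes had a value that both gamma mca4 arrays lacked, and 208 probes showed the reverse. Prr9, a skin proline-rich gene, read -2.90 and -2.42 in gamma mmca, had no value in gamma mca4, and read -0.26 and -0.18 in carbon mmca against -2.39 and -2.4 in carbon mca4. Mybph, a myosin-binding protein of muscle, read -0.39 and -0.80 in gamma mca4 with no value in gamma mmca, and 0.05 on both carbon mmca arrays against -1.23 and -1.44 in carbon mca4. Cdkn2a, a tumour suppressor gene, gave -0.53 in the gamma experiment (limma adjusted p = 0.0359) and -0.21 in the carbon experiment (adjusted p = 0.687), with fibrosarcoma means of -1.97 and -2.22.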
